A study of Homo sapiens with 12 samples.

Results

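The K303R line is MDA-MB-453, a human breast cancer line of the apocrine luminal kind that lacks estrogen receptor alpha (ER), made to express the K303R form of ER when doxycycline (Dox) is added. Open chromatin was mapped by ATAC-seq, which uses a transposase to cut and tag accessible DNA. The comparison described here sets the 2 K303R libraries with Dox (Dox alone and Dox with estradiol, Dox+E2) against the 2 without it (untreated and estradiol alone, E2). Dox was given at 2 µg/mL and E2 at 1 nM for 2 days in serum-containing medium, and 50000 cells entered each library. The 4 K303R libraries are 4 of 12 in the series, which holds the same 4 treatments for lines with wild-type (WT) and Y537S ER. Each group had 1 library, so nothing below has a replicate error, and no fold or count below has a p-value from replicates. The labels do not say whether the line is a clone. Every line carries an ER form, so Dox itself and the receptor it induces cannot be told apart.

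ER is a hormone-activated transcription factor that binds inverted repeats of the hexamer AGGTCA (the estrogen response element, ERE), mostly at enhancers far from gene starts, where FOXA1 and GATA3 often sit beside it. K303R alters the hinge between the DNA-binding and hormone-binding domains and has been described in breast lesions. Y537S alters the hormone-binding domain and leaves the receptor active without hormone.

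Peaks of the 4 K303R lists on chromosomes 1 to 22 and X were merged where they overlapped by at least 1 bp, which gave 107780 regions. A region was called gained when both Dox lists and neither other list had a peak there, and lost when the reverse held. There were 15757 gained regions (14.6% of all regions) and 157 lost regions (0.146%), while 24012 regions (22.3%) were open in all 4 libraries. These members were chosen by the presence of peaks, so their presence or absence in the 4 libraries is a description of the choice.

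Promoter windows from RefSeq (GRCh38.p14, 250 bases before to 50 after a start) show 3 kinds of gained site. The FMN1 start, of a gene for a formin that builds actin cables, had the strongest gained peak in a promoter once lists were cut to equal length (below). ARID5B encodes a chromatin protein, and its start was the strongest such site with the hexamer AGGTCA among the bases printed. LINC02466, a long non-coding RNA gene, has a full ERE just before its start, inside a region gained in all 3 lines. The 250 bases before each start are given 5′ to 3′ on the gene's strand, with AGGTCA (either strand) or the ERE in capitals. They lie at chr15:33068175-33068424 (minus strand), chr10:62049107-62049356 (plus strand) and chr4:129771479-129771728 (minus strand).
FMN1: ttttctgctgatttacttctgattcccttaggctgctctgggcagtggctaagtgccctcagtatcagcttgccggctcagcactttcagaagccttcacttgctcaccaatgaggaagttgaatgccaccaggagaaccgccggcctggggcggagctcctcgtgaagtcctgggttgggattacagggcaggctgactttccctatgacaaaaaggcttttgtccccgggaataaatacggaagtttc
ARID5B: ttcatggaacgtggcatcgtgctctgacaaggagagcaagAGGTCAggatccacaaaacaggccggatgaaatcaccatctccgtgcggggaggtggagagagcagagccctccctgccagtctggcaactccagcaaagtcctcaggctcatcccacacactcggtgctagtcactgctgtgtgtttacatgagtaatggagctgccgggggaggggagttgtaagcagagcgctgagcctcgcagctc
LINC02466: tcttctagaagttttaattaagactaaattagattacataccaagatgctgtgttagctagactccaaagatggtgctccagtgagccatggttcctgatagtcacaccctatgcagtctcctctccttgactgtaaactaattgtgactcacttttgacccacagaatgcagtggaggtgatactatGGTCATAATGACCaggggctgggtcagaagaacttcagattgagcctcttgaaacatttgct
The FMN1 window held no AGGTCA. The ARID5B hexamer began 210 bases before the start, and the LINC02466 element began 62 bases before its start.

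The region over the FMN1 start had summit pileups (the number of fragments stacked at the peak's highest point) of 28 with Dox and 22 with Dox+E2, against no peak in the untreated library and 7 with E2. At the ARID5B start the pileups were 14 with Dox and 15 with Dox+E2, against no peak untreated and 7 with E2. At equal length 7 was the lowest pileup kept in the E2 list, where 7864 summits tied at the limit. The E2 peaks at FMN1 and ARID5B were left out by a seeded random order, so both gained calls rest on it. Neither start was gained in the full lists. The LINC02466 region (chr4:129771361-129771741) had 6 with Dox and 10 with Dox+E2, and no peak in either library without Dox. It had pileups of 7 and 14 in the WT Dox and Dox+E2 libraries and 30 and 34 in those of Y537S, against no peak in the 4 libraries of those lines without Dox. The ERE-bearing site had a peak in both Dox libraries of each line, at low pileups in K303R and WT, and it was not gained in K303R at equal length.

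List length and signal over background have to be read beside every count. The deposited lists held 97243 peak summits with Dox and 102713 with Dox+E2, against 39522 untreated and 61723 with E2. The lowest pileup listed was 3, 3, 5 and 4 in that order, so a region without a listed peak had a pileup below about that level and was not shown to be closed. The untreated library had the highest background, 0.442 fragments per position, against 0.21 with Dox, 0.192 with Dox+E2 and 0.211 with E2. Its median pileup over the regions open in all 4 was 22.6 times its background, against 66.8, 73 and 56.7 times in the Dox, Dox+E2 and E2 libraries. All 4 lists carry the same number tag in their peak names. A peak lay within 1 kb of the start of 12, 11, 9 and 10 of 15 apocrine luminal marker genes in the Dox, Dox+E2, untreated and E2 libraries, FOXA1, GATA3, SPDEF, XBP1, KRT8 and KRT18 among them in all 4. The counts were 5, 5, 2 and 5 of 15 for basal markers and 2, 3, 2 and 2 of 15 for haematopoietic markers. Over all 19974 protein-coding genes they were 12121, 12260, 9095 and 11184, lowest in the untreated library too.

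Most gained regions were weak. Their median pileup was 5 with Dox and 6 with Dox+E2, and the smaller of the 2 pileups was at most 4 in 7093 of them (45%). It was at least 10 in 454 (2.88%) and at least 15 in 56. Without the untreated library there were 17171 gained and 3140 lost regions. With the same lowest pileup relative to shared regions in every library (7, 7, 5 and 6 fragments in Dox, Dox+E2, untreated and E2), 3093 gained (5.24% of 59001 regions) and 1265 lost regions (2.14%) were called. With each list cut to its 39522 strongest summits by −log10 p, the length of the shortest list, there were 1758 gained (3.89% of 45244 regions) and 1767 lost regions (3.91%). Gained regions thus far outnumbered lost ones in the full lists, and the 2 numbers were close at equal length. That closeness depends on the random order of tied peaks. With all of them left out there were 1395 gained and 2084 lost regions, and with all kept 1663 and 2051.

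**Figure D1:**
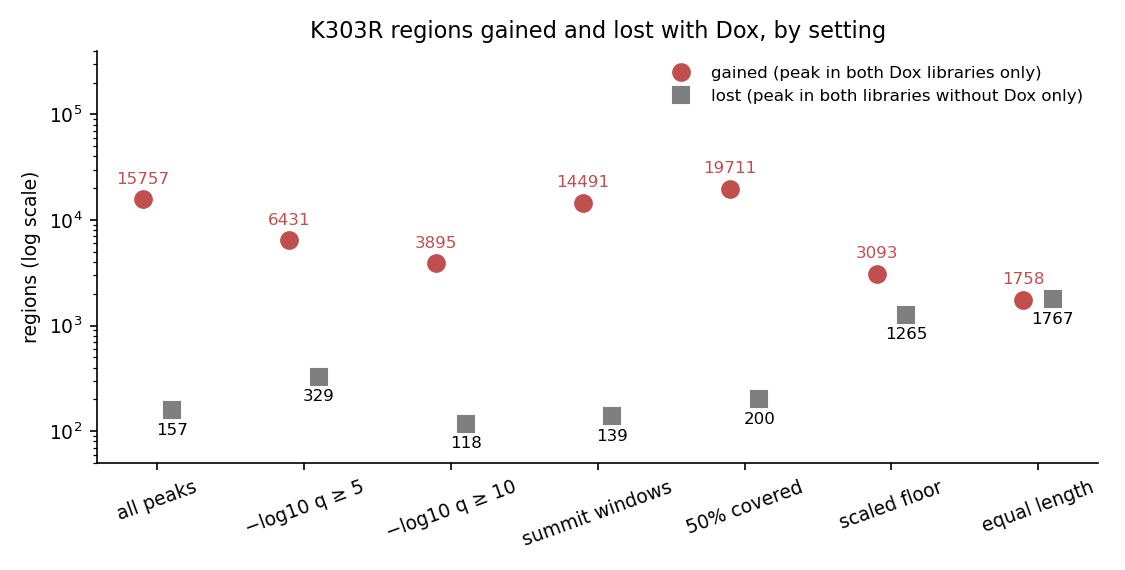
Number of K303R regions gained (circles) and lost (squares) with Dox on a log axis, for the full lists, 2 stricter −log10 q thresholds, windows of fixed width around summits, a peak covering at least 50% of the region, 1 scaled pileup floor, and lists of equal length. Gained regions outnumber lost ones 15757 to 157 at all peaks and number 1758 against 1767 at equal length, with tied peaks in a seeded random order.

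Equal length does not make the 2 kinds of call mirror images. None of the 1758 equal-length gained regions had a peak in the untreated list, which is used whole. In the E2 list 939 (53.4%) had a peak that the cut left out, either weaker than the limit or tied at it. The other 819 (46.6%) had none in either list. Of the 1767 equal-length lost regions, 1485 (84%) had such a left-out peak in both Dox lists and 40 (2.26%) had a peak in neither. Lost regions at equal length were thus mostly regions whose Dox peaks were below the limit or tied at it, not regions without a peak there.

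The strongest gained regions are given by the gene they lie in or nearest to. The region 31 kb from CACNG4, a calcium channel subunit gene (chr17:66933173-66934326), had pileups of 25 with Dox and 24 with Dox+E2 and no peak in the untreated and E2 libraries. Near TRPC6, a cation channel gene (chr11:101441443-101442180), the pileups were 38 and 23 in the same 2 libraries. Inside OTUD7B, which encodes a deubiquitinase (chr1:150017233-150017862), they were 23 and 23. All 3 sites, chosen for their strength, were in both Dox libraries at several times the lowest listed pileup.

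Inside PLXNA2, a semaphorin receptor gene (chr1:208068838-208069618), the pileups were 23 with Dox and 34 with Dox+E2. The region 14.6 kb from PANX1, which encodes a membrane channel, had 23 and 23. Regions inside TRABD2B (25 and 22), GAB2, a signalling adaptor gene (23 and 22), and CACNA1D, a calcium channel gene (22 and 27), and regions 60.6 kb from HSPH1, a chaperone gene (22 and 30), and 10.2 kb from RNF139 (22 and 26) followed, all with no peak in the untreated and E2 libraries. At equal length a region inside CDH26, a cadherin gene, ranked first with 25 and 27 in the Dox and Dox+E2 libraries, against no peak untreated and 5 with E2. A region inside PI4KB, a lipid kinase gene, had 22 and 24, against no peak untreated and 6 with E2.

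The strongest of the 157 lost regions at all peaks had lower pileups than the strongest of the 15757 gained ones. The median pileups of gained regions were 5 with Dox and 6 with Dox+E2. Those of lost regions were no lower, 7 untreated and 6 with E2. The region with the largest smaller −log10 q lay on chromosome 13 (chr13:39913983-39914255) with no protein-coding gene within 100 kb, and had no peak with Dox or Dox+E2, against pileups of 12 untreated and 10 with E2. Regions inside RASSF5 (12 and 8 in the untreated and E2 libraries), ASAP1 (11 and 8), IDE, the insulin-degrading enzyme gene (11 and 7), RSPRY1 (11 and 7) and P2RY6, a nucleotide receptor gene (9 and 7), had no peak with Dox. So did regions 17.1 kb from SPN (10 and 8), near ADAM30 (9 and 9), 15 kb from ZBTB42 (9 and 7) and 5.09 kb from VDR, the vitamin D receptor gene (9 untreated and 16 with E2). Apart from the 16 near VDR, the highest of these pileups was 12.

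At equal length the strongest lost regions kept weaker peaks with Dox. The first, on chromosome 1 (chr1:229076193-229076597) with no protein-coding gene within 100 kb, had 4 with Dox and 7 with Dox+E2, against 17 untreated and 16 with E2. The region 7.79 kb from EMP2, a membrane protein gene (chr16:10520434-10521037), had 6 and 7, against 16 and 15. Regions near USH1G (7 and 8, against 15 and 13), inside ATG16L1, an autophagy gene (6 and 8, against 15 and 19), near TCF20 (7 and 7, against 15 and 12), near GPD1L (7 and 4, against 15 and 16) and inside CACNA2D2, a calcium channel subunit gene (6 and 6, against 15 and 17), were alike. In each of them both Dox libraries were below both libraries without Dox. These regions were chosen for strong peaks without Dox and none kept with it, so this order describes the choice.

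**Figure D2:**
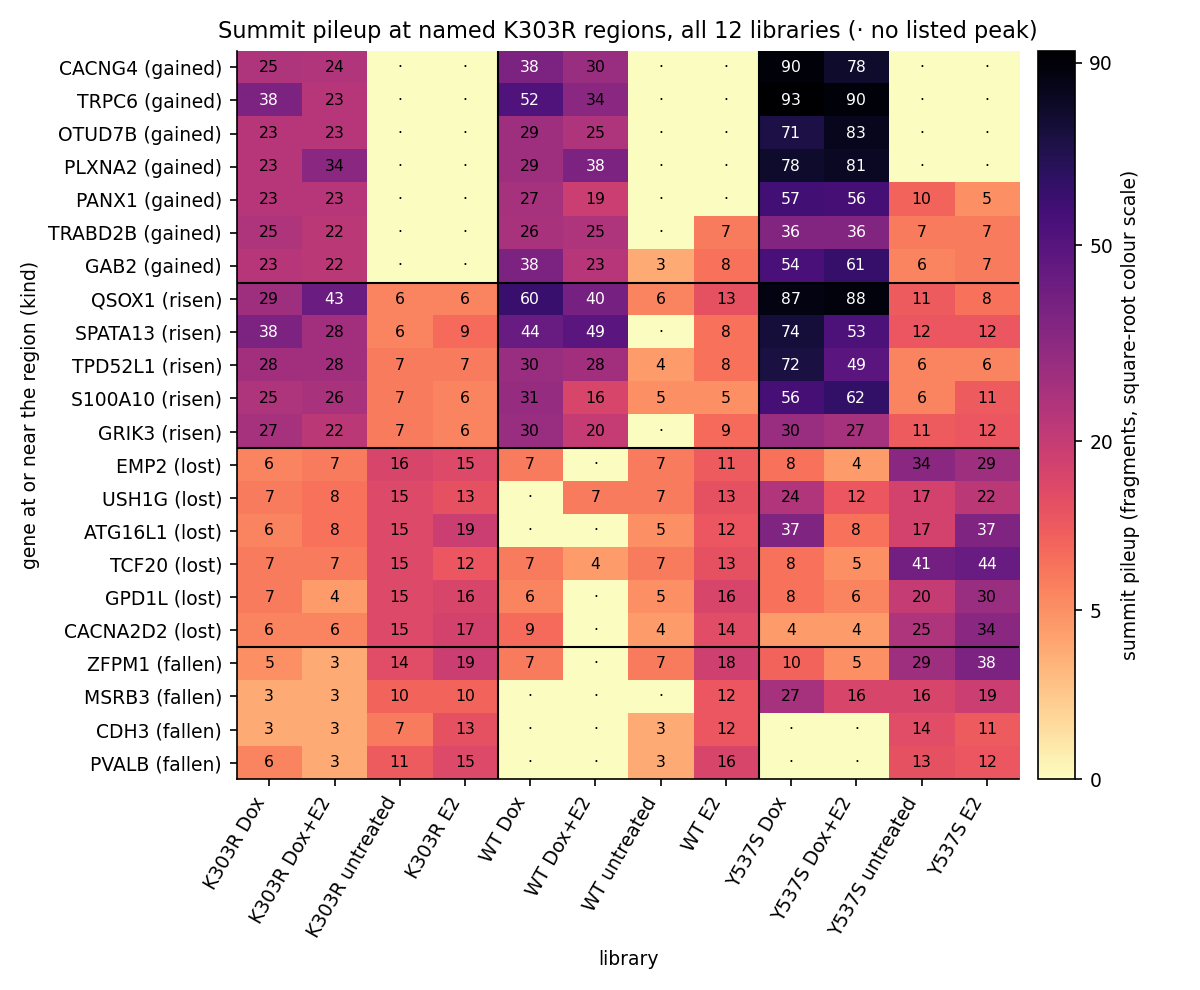
Summit pileup (number in each cell and square-root colour scale; a dot is no listed peak) at examples of the strongest K303R regions, by library: the 4 K303R libraries at left, then those of the WT and Y537S lines, each with Dox, Dox+E2, untreated and E2 in that order. Rows are gained regions, regions open in all 4 that were at least 2-fold higher, lost regions at equal length, and regions open in all 4 that were at least 2-fold lower; CACNG4 reaches 90 and 78 in the Y537S Dox and Dox+E2 libraries, with no peak in Y537S untreated and E2.

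The WT and Y537S libraries played no part in calling these regions, so they show how far the calls recur. At equal length, K303R gained regions had a peak in 65.1% (WT Dox) and 59% (WT Dox+E2) of cases, against 34% (WT untreated) and 31.4% (WT E2). In the Y537S line the shares were 52% with Dox and 52.7% with Dox+E2, against 32.7% untreated and 30.4% with E2. Lost regions had the reverse order. Their shares were 20.1% and 16% in the WT Dox and Dox+E2 libraries, against 52.6% and 49.3% in the WT untreated and E2 libraries. They were 19% and 17.8% in the Y537S Dox and Dox+E2 libraries, against 53.1% and 53.9% in the Y537S untreated and E2 libraries. In both lines both Dox libraries stood apart from both without Dox, for gained and for lost regions.

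Averaged over both lines, the share with a peak was 25.1 percentage points higher with than without Dox for gained regions and −34 points for lost regions, while it was −9.38 points over all 45244 regions. The 36 arrangements of the treatment labels within lines allow no exact two-sided permutation p under 0.0556, so none of these differences can pass a threshold of 0.05. The peak names of the WT Dox libraries carry a different number tag from those of the WT libraries without Dox, and the labels do not say what the tag marks. The 4 Y537S libraries share a tag, and there the difference was 20.9 points for gained and −35.1 points for lost regions. With full lists the differences were 23.6 points in WT and 11.5 in Y537S for gained regions, and −22 and −32.5 for the 157 lost regions, against 4.75 and 1.14 points over all 107780 regions. For gained regions in WT the full-list difference rests mostly on the pair without E2 (58.3% with Dox, against 14.8% untreated). In the E2 pair it was 39.8% with Dox+E2, against 36.1% with E2. Over all regions that E2 pair had 39.2% and 47.5%. For lost regions in WT the difference rests on the E2 pair (10.2% with Dox+E2, against 54.8% with E2). There the share was 23.6% with Dox, against 22.9% untreated.

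**Figure D3:**
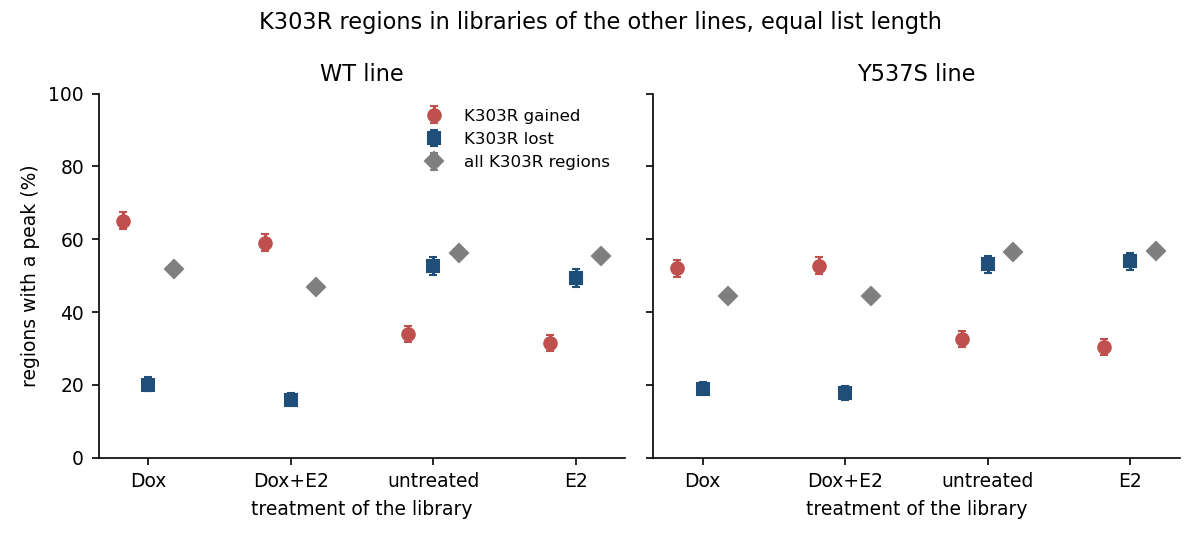
Share of K303R regions with a peak in each WT and Y537S library, all lists at equal length, for gained regions (circles), lost regions (squares) and all regions of the merge (diamonds); bars are exact 95% binomial intervals over regions and cover counting error only. Gained regions are at 52% to 65.1% in the 4 Dox libraries and 30.4% to 34% in the 4 without.

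By the K303R rule applied in each other line, 472 of the 1758 equal-length gained regions (26.8%) were also gained in WT, and 494 (28.1%) in Y537S, against 4.47% and 5.82% of all regions. There were 335 (19.1%) gained in both, the CACNG4, TRPC6, OTUD7B and PLXNA2 regions among them, and 1127 (64.1%) gained in neither. Of the equal-length lost regions, 388 (22%) were lost in WT and 463 (26.2%) in Y537S, against 7.51% and 13% of all regions. There were 158 (8.94%) lost in both. With full lists, the share gained in both other lines was 11.4% for regions whose smaller Dox pileup was 3 or 4. It was 13.6% at 5 or 6, 21.6% at 7 to 9, 31.4% at 10 to 14 and 46.4% (26 of 56, exact 95% interval 33% to 60.3%) at 15 or more. The stronger K303R gained regions were the ones that the other lines shared more often, as shares that describe these libraries. The share of all regions gained in both other lines was not taken, by strength or by position, so these shares have no such base rate beside them.

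Gained regions lay near gene starts less often than regions open in all 4. At all peaks 11.8% (exact 95% interval 11.3% to 12.3%) had their summit within 1 kb of a protein-coding gene start, against 34.5% (33.9% to 35.2%) of regions open in all 4 and 17.2% of all regions. Lost regions had 7.01% (3.55% to 12.2%). At equal length the shares were 19.1% (17.3% to 21%) for gained regions, 9.28% (7.97% to 10.7%) for lost 43% (42.3% to 43.8%) for regions open in all 4 and 26% for all regions. Inside a protein-coding gene lay 53.9% of gained regions, 58% of lost regions, 49.7% of regions open in all 4 and 53.7% of all regions, so the gained share was close to that of all regions.

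The equal-length gained regions at gene starts differed from the rest. Of the 336 within 1 kb of a start, 78.9% had a peak in the E2 list that the cut left out, against 47.4% of those farther away. In the Y537S line those at starts had a peak in 51.8% of cases in the Dox libraries (mean of both), against 64.3% without Dox, while those farther away had 52.5% and 23.8%. All equal-length regions near starts were also less often open with Dox in Y537S, 70.9% with Dox against 81.7% without. In WT the shares were 66.4% and 54% at starts, and 61.1% and 27.6% farther away. Only 13 of the 336 (3.87%) were gained in both other lines, against 22.6% of those farther away. The starts of CSTF3, a messenger RNA cleavage factor gene (19 with Dox and 20 with Dox+E2, against no peak untreated and 7 with E2), WNK1, a kinase gene (18 and 15, against no peak and 7), and CDC42, a small GTPase gene (15 and 16, against no peak and 7), are examples. At each of these starts the 7 with E2 was tied at the limit, so these calls rest on the random order. At the CSTF3 start the Y537S pileups were 22 and 29 with Dox and Dox+E2, against 37 and 26 untreated and with E2. All 336 lack a peak in the whole untreated list, the library with the weak signal given above, and its part in them was not tested.

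In the promoter windows, 3 of 1036 that a gained region overlapped held the full element GGTCANNNTGACC (0.29%, exact 95% interval 0.0598% to 0.844%), against 3 of 10909 overlapped by a region open in all 4 (0.0275%) and 20 of all 34961 (0.0572%). The 3 windows lie in only 2 regions, that of LINC02466, whose window overlaps the LINC02465 window on the other strand, and that of LINC01005, where the pileups were 3 and 4. AGGTCA, which can overlap that element but not lie wholly inside it, was in 13.7%, 9.17% and 13.8% of the 3 sets in the same order. TGANTCA, the AP-1 site, was in 9.36%, 4.21% and 7.68%. GCCNNNGGC, an AP-2 site, was in 32.5%, 32.8% and 23.2%. GTAAACA, which forkhead factors bind, was in 3.57%, 2.49% and 3.42%. The site of the GATA factors, spelled AGATAA, was in 7.05%, 3.88% and 10.3%. Every motif was read on both strands. At equal length the shares in 397 gained windows were 13.4% for AGGTCA and 8.06% for TGANTCA, and none held the full element (exact 95% upper bound 0.925%). No window overlapped a lost region at all peaks, and gained regions outside these windows were not read, since no genome sequence was used here.

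Genes of the estrogen response had a gained region nearby more often than all genes. Several other lists given below did so too, housekeeping genes among them. Of 50 genes on that list, 46 had a gained region within 50 kb and 1 had a lost one, while the shares over all 19974 protein-coding genes were 62.5% and 1.8%. At equal length 15 of 50 (30%) had a gained and 8 of 50 (16%) a lost region, against 14.7% and 14.6% of all genes. Listed genes have more open regions around them, a median of 14 against 9. Of the regions near them 19.1% were gained, against 13% summed over all genes.

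The region over the TFF1 start, of a secreted trefoil peptide and a classical ER target (chr21:42366247-42366973), had pileups of 11 with Dox and 17 with Dox+E2, against no peak untreated and with E2. It lay 0.147 kb from the start. PGR, the progesterone receptor gene, had 8 gained among 20 regions, 3 of them at equal length. Inside PGR the pileups were 13 and 12 (chr11:101034081-101034482), and 29.7 kb outside it 12 and 10 (chr11:100999649-101000325), against no peak in either library without Dox. A peak in both Dox libraries, with and without E2, was required by the rule that chose these regions.

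RET, a receptor tyrosine kinase gene, had 8 gained among 28 regions, the strongest with pileups of 9 with Dox and 14 with Dox+E2 (chr10:43082123-43082546). RAB31, a GTPase gene, had 11 among 27, MYB, a transcription factor gene, 7 among 16, and SIAH2, a ubiquitin ligase gene, 5 among 20. A region inside TPD52L1 had 22 and 18, against no peak untreated and 4 with E2. GREB1, a coactivator gene, had 2 weak gained regions, with 4 and 7 and with 4 and 9 fragments in the Dox and Dox+E2 libraries, and neither was called at equal length. TFF1 and SLC7A5, an amino acid transporter gene, also had a lost region at equal length (6 and 3, against 9 and 8, and 4 and 4, against 9 and 9).

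Gained regions within 50 kb of estrogen response genes numbered 147. In both other lines 21.1% of them were gained too (exact 95% interval 14.8% to 28.6%), against 14.2% of all 15757. The TFF1 region had 13 and 21 in the WT Dox and Dox+E2 libraries, against 4 and no peak in the WT untreated and E2 libraries, and 45 and 42 in those of Y537S with Dox, against no peak and 10 without. The RET region had 13 and 15 in WT and 34 and 29 in Y537S with Dox, and no peak in the 4 libraries without it.

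The shares of all protein-coding genes, 62.5% at all peaks and 14.7% at equal length, also stand beside the counts of the other lists. Among immediate early genes, 21 of 22 had a gained region at all peaks and 9 of 22 (40.9%) at equal length, with 3 lost. The region 26.3 kb from FOS, an AP-1 subunit gene, had 10 with Dox and 10 with Dox+E2, and no peak without Dox. Regions near ZFP36, an RNA-decay factor gene (14 and 9), JUND, another AP-1 subunit gene (9 and 12), and CCN1, a matrix protein gene (9 and 9), were also without a peak in both libraries without Dox. Of interferon response genes 12 of 20 (60%) had a gained region, close to the share of all genes, and 7 of 20 (35%) at equal length. The region 18.2 kb from IFIT1 had 12 and 17.

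Luminal transcription factor genes had 15 of 18 with a gained region and 6 of 18 (33.3%) at equal length. GATA3 had 6 among 27 regions and FOXA1 4 among 22, none of them at equal length. The strongest by GATA3 had 9 with Dox and 6 with Dox+E2, another had 14 and 6, and the strongest by FOXA1 had 7 and 6. For androgen response genes the counts were 18 of 24 (75%) and 5 of 24 (20.8%). FKBP5, a chaperone gene and androgen target, had a gained region at equal length with 11 with Dox and 12 with Dox+E2, against no peak untreated and 6 with E2. Integrated stress response genes had 14 of 20 (70%) and 5 of 20 (25%), and a region 37.5 kb from ATF4, its central transcription factor, had 9 and 19.

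Housekeeping genes, with 15 of 20 at all peaks and 6 of 20 (30%) at equal length for gained and 6 of 20 for lost regions, stood as high as estrogen response genes at equal length. ER and its cofactors had 19 of 20, with 4 gained and 6 lost at equal length. Growth factor receptors had 16 of 20, with 3 and 6. Cell cycle genes had 12 of 20 (60%), with 3 and 2. Of the marker lists, apocrine luminal genes had 15 of 15, with 4 and 4, basal genes 8 of 15, with 3 and 5, and haematopoietic genes 10 of 15, with 2 and 1. Lost regions at equal length near named genes include one inside NCOA1, a steroid receptor coactivator gene (3 with Dox and 5 with Dox+E2, against 8 untreated and 10 with E2), and one inside TP63, a basal transcription factor gene (5 and 4, against 8 and 13). TP63 also had 7 gained regions, the strongest 47.3 kb away with 14 and 13 and no peak without Dox. Genes on several lists have more open regions around them than all genes, whose median was 9. It was 22 for apocrine luminal, 20.5 for luminal transcription factor, 16.5 for immediate early and 12 for housekeeping genes. Of the regions near them 13.2%, 14.2%, 16.4% and 12.1% were gained, against 13% summed over all genes. Over the 13 lists this share ran from 12.1% (housekeeping) to 19.1% (estrogen response). These counts describe the lists and carry no test.

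**Figure D4:**
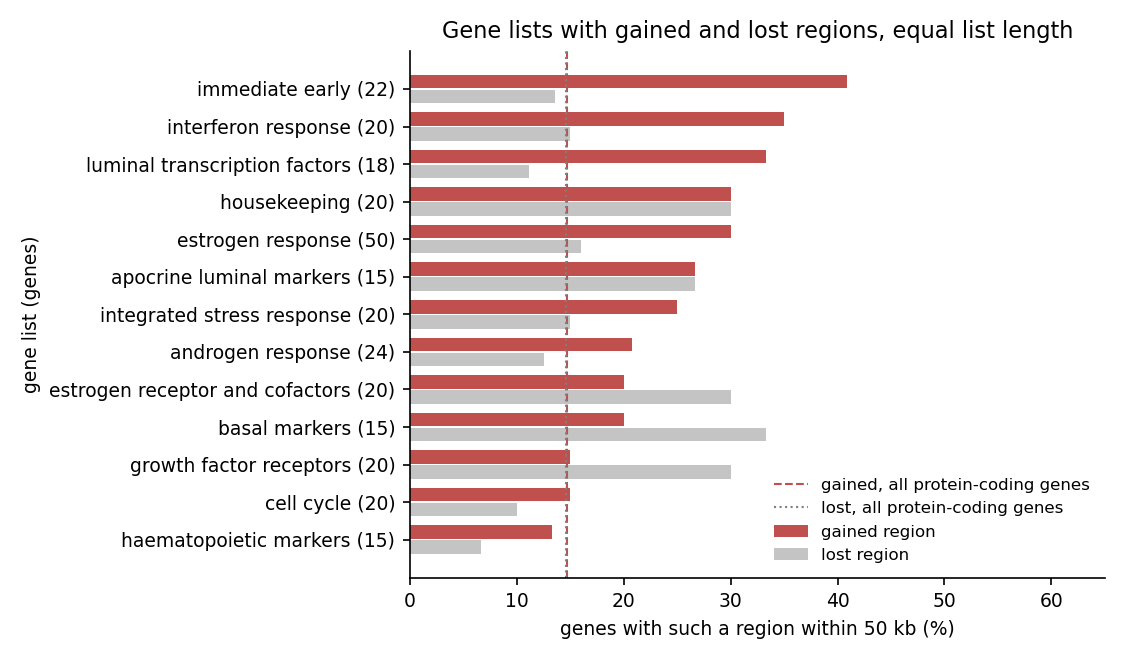
Share of genes on each of 13 lists (number of genes in brackets) with a gained (upper bar) or lost (lower bar) K303R region within 50 kb at equal list length, with dashed and dotted lines at the share of all protein-coding genes, 14.7% and 14.6%. Immediate early genes reach 40.9% for gained regions, and housekeeping genes 30% for both.

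The 6 genes with at least 15 gained regions within 50 kb had many open regions around them. GPHN, a synaptic scaffold gene on chromosome 14, had 18 gained among 72 regions (25%), ITPK1, an inositol kinase gene, 17 among 58 (29.3%), GSE1 16 among 100 (16%), KAZN 16 among 60 (26.7%), RAD51B, a recombination gene, 15 among 96 (15.6%), and RBM20, a splicing factor gene, 15 among 44 (34.1%). The shares of GSE1 and RAD51B were close to the 14.6% of all regions. At equal length each of these 6 had at most 2. The strongest by ITPK1, inside the gene, had 11 with Dox and 11 with Dox+E2 and no peak without Dox.

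ESR1 itself (chr6:151656672-152129619) held 17 regions, with a peak in 15 with Dox and 10 with Dox+E2, against 2 untreated and 8 with E2. Of all 107780 regions, 70% had a peak with Dox and 74.9% with Dox+E2, against 27.6% untreated and 41.9% with E2, so both lists without Dox were also the shorter ones over all regions. The positions are those of the cell's own gene. A peak over an exon could also come from the inserted copy, which the files do not show apart. The strongest (chr6:151763178-151764595) was open in all 4, with 24 with Dox and 28 with Dox+E2, against 19 untreated and 32 with E2. A region 24.6 kb from the nearest start had 11 and 8, against no peak in either library without Dox, and 2 weaker gained regions had 5 and 3 and 3 and 4.

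Regions open in all 4 libraries could be compared by level. Each pileup was divided by its library's median over the 24012 shared regions (14, 14, 10 and 12 in the Dox, Dox+E2, untreated and E2 libraries), and a change was counted when it was at least 2-fold the same way in both matched pairs, Dox over untreated and Dox+E2 over E2. On this scale 40 regions (0.167%) were higher with Dox and 363 (1.51%) lower. A region had to be listed in all 4, and the lowest listed pileups were 3, 3, 5 and 4 in the same order. Relative to the medians this floor was higher without Dox. Regions low without Dox thus left the set sooner than regions low with Dox, and the effect on these counts was not tested. The median log2 difference was 0.08 in the 8295 regions near gene starts and −0.20 in the 15717 others. With each pileup divided by its library's background instead, the median over all regions moved from −0.08 to 0.88, a shift of 0.96, and the counts were 1885 higher and 1 lower, so the balance between rises and falls depends on the scaling. The second scaling moves every region by the same amount within a pair, but by more in the Dox and untreated pair. Their medians over background were 66.8 and 22.6, against 73 and 56.7 for Dox+E2 and E2.

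The largest increase was inside QSOX1, which encodes a disulfide-forming enzyme (chr1:180166828-180168573), with 29 with Dox and 43 with Dox+E2, against 6 untreated and 6 with E2, a mean scaled log2 difference of 2.20 (3.17 on the background scale). A region inside SPATA13 had 38 and 28, against 6 and 9 (1.80). A region inside TPD52L1, other than the gained one above, had 28 and 28, against 7 and 7 (1.65). In each of these both Dox libraries were well above both others. The regions were chosen by the size of this difference, so this order describes the choice. Regions 5.3 kb from S100A10, an annexin partner gene (25 and 26, against 7 and 6), and on chromosome 3 with no protein-coding gene within 100 kb (28 and 31, against 7 and 8) followed.

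The largest decrease was inside ZFPM1, a GATA cofactor gene (chr16:88510310-88510686), with 5 with Dox and 3 with Dox+E2, against 14 untreated and 19 with E2, a mean scaled log2 difference of −2.43 (−1.47 on the background scale). Regions inside MSRB3 (3 and 3, against 10 and 10; −2.09) and CDH3, the P-cadherin gene (3 and 3, against 7 and 13; −2.02), followed. CDH3 also had 4 gained regions, and 3 at equal length, such as one 22.7 kb away with 12 and 14, against no peak untreated and 6 with E2. The Dox pileups at the MSRB3 and CDH3 regions that fell were at the lowest value listed, so these differences may be larger or smaller by a fragment or more.

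**Figure D5:**
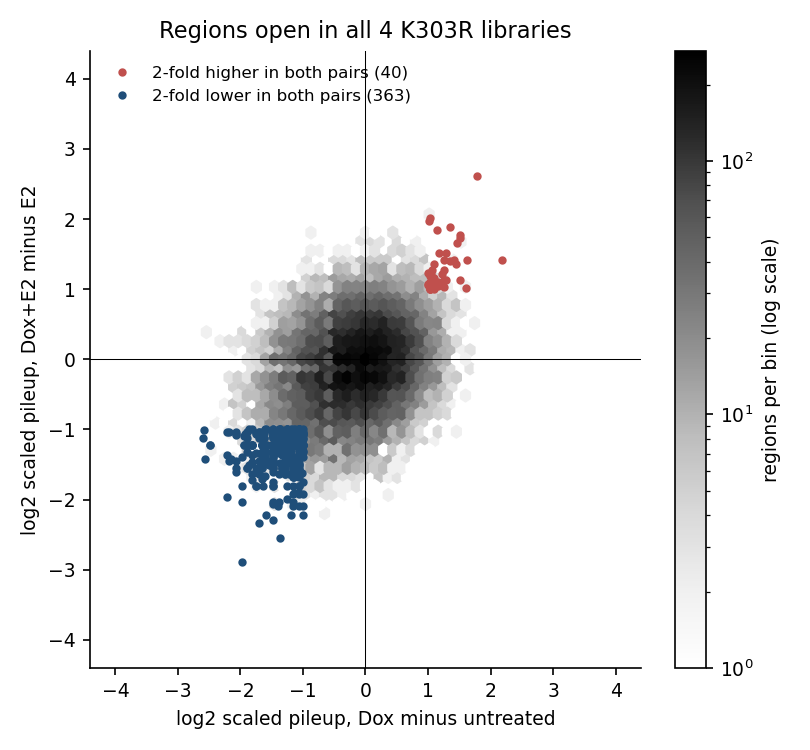
Scaled summit pileup of the 24012 regions open in all 4 K303R libraries, as the log2 difference of Dox minus untreated (horizontal) and Dox+E2 minus E2 (vertical); grey hexagons show how many regions share a place (log scale). The 40 regions at least 2-fold higher in both pairs lie at upper right and the 363 at least 2-fold lower at lower left.

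The same regions were read in the other lines, whose libraries did not choose them. Of the 40 that rose, 29 had a summit in all 4 WT libraries and 36 in all 4 Y537S libraries, and the median log2 difference there, Dox minus no Dox, was 0.44 in WT and 0.95 in Y537S, against 0.02 and 0.06 over all shared regions. It was above 0 in 23 of 29 and 29 of 36. Of the 363 that fell, 102 and 236 could be read so, with medians of −0.53 and −0.46, and 82 of 102 and 162 of 236 were below 0. The QSOX1 region had 60 and 40 in the WT Dox and Dox+E2 libraries, against 6 and 13 in WT untreated and E2, and 87 and 88 in Y537S with Dox, against 11 and 8 without.

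Within the gained regions, values with and without E2 were close on the median. The rule chose these regions for a peak in both Dox libraries, so regions with a peak in only 1 of them are left out. The scaled log2 difference of Dox+E2 minus Dox had a median of 0 over the 15757 gained regions, with 1284 at least 2-fold higher and 852 at least 2-fold lower with E2. Over regions open in all 4 the median was 0.05, with 1084 and 702. With 1 library of each kind and pileups of a few fragments, these counts cannot be set against replicate spread.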

How the data were processed

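ATAC-seq peak lists of 12 libraries were deposited, 1 per ER form and treatment. The submitters' processing notes list Bowtie2, MACS2, Picard, SAMtools and FastQC and the hg38 build; versions and settings are not given there. The deposited columns used were the authors' fold enrichment (a ratio over background) and their −log10 p and −log10 q values; the authors' score column and the other deposited columns (position, name, summit offset) served for placement or were not used. Peaks were called per library. Fold steps gave whole summit pileups (largest departure from a whole number 0.000721 in the 4 K303R lists), which are fragments and not independent counts of molecules. Total read depth is unknown.

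Python 3.11.15, pandas 2.3.3, NumPy 2.4.6 and SciPy 1.17.1 did the merging and counting, and the steps were tested on simulated data. Peaks tied at the equal-length limit were taken in a seeded random order. Genes are RefSeq protein-coding genes (GRCh38.p14); 15812 of 19974 had a stranded start, and for the others both ends stood in. Intervals are exact (Clopper-Pearson, 95%) and cover counting error only. Named regions were the strongest by the smaller −log10 q or by mean log2 difference, plus the strongest by listed genes with a gained or lost region at equal length, of which examples are given, and 8 further genes. The regions, lists and rules were chosen with earlier results of these data known. Some selected regions and genes are not reported here. Motifs were read in promoter windows in place of summit windows. Alternatives are given in the closing section.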

Additional observations from a re-analysis of the deposited data

Results flagged for a closer look

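Some K303R regions were called the opposite way with Dox in another line, at equal list length. The difference between lines was not tested, since each treatment had 1 library a line. Their shares were below those over all regions. Of K303R gained regions 3.64% were lost in WT and 6.03% in Y537S, against 7.51% and 13% of all regions, and 1.36% and 1.25% of K303R lost regions were gained there, against 4.47% and 5.82%.

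In WT, 64 regions gained in K303R were lost. A region at THBD, the thrombomodulin gene, had K303R pileups of 13 and 14 in the Dox and Dox+E2 libraries, against no peak untreated and 7 with E2, and 8 and 6 in the WT Dox and Dox+E2 libraries, against 6 and 14 in the WT untreated and E2 libraries. In Y537S, 106 regions gained in K303R were lost. The OSBPL1A start, of a lipid-binding protein gene, had 15 and 16 in K303R with Dox, against no peak untreated and 4 with E2, and 12 and 11 in Y537S with Dox, against 30 and 34 without.

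The reverse pattern, lost in K303R and gained elsewhere, held for 24 regions in WT and 22 in Y537S. A region inside SYT2 had 6 and 5 in K303R with Dox, against 13 untreated and 11 with E2, and 11 and 13 in WT with Dox, against no peak and 7 without. A region inside ANO1, a chloride channel gene, had 7 and 8 in K303R with Dox, against 14 and 12 without, and 19 and 16 in Y537S with Dox, against 12 and 14 without. At each of these 4 regions a library without a peak at equal length listed a weaker one in full. At THBD the 7 with E2 in K303R was tied at the limit, so its K303R call rests on the random order.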

How the results depend on the processing

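No analysis paired by replicate was possible because each group had 1 library, so that no replicate number is shared by samples a block could separate. Dox and no-Dox libraries were matched by E2 only. Gained regions numbered 15757 and were 6431 and 3895 at −log10 q of at least 5 and 10, 3093 with a scaled pileup floor and 1758 at equal length. The 157 lost regions were 329 at −log10 q of at least 5, 1265 with the scaled floor and 1767 at equal length. Summit windows, 50% coverage and a merge of all 12 libraries kept both counts within 1.5 times. With 1 library fewer the rule is less strict. Without Dox, Dox+E2, untreated or E2 there were 41168, 36505, 17171 and 29117 gained and 498, 586, 3140 and 2956 lost regions. At equal length the counts were then 5279, 5088, 4352 and 3557 gained and 3220, 3353, 9153 and 8071 lost. The 20000 strongest peaks gave 1071 gained and 1026 lost. Ranking by fold or −log10 q changed nothing, and leaving out or keeping all tied peaks, chosen after seeing the data, gave 1395 or 1663 gained and 2084 or 2051 lost.

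Regions open in all 4 that were higher and lower numbered 1885 and 1 scaled by background, 473 and 1827 at 1.5-fold, and 1 and 15 at 3-fold. Scaled by regions at gene starts, 21 were higher and 536 lower. Within 2500 bp of a start lay 19% of gained and 17.2% of lost regions, and within 1 kb at equal length 19.1% of gained ones. The Dox minus no Dox difference of gained regions moved to 29.4 points in WT and 20.9 in Y537S at equal length. Taken apart by position, chosen after seeing the data, it was 19.9 points in WT and −7.38, the opposite sign, in Y537S near starts, and 14 in Y537S away from them; for lost regions near starts in WT it was 0. Genes with a gained region numbered 2930 at equal length, and those with a lost one 212 at 20 kb, 601 at 100 kb and 2909 at equal length. On the estrogen response list 15 had a gained and 8 a lost region at equal length. GATA sites were in 4.79% of promoters with an equal-length gained region. The cause of these moves was not tested, apart from the fewer peaks or libraries that a setting uses. Motifs around summits were not run, for want of a genome.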
